A study of Mus musculus with 12 samples.

Results

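The interferon response genes described here are 9 genes that cells switch on when they sense interferon: Gbp2, Gbp3, Iigp1, Irgm1, Irf1, Irf7, Ifit1, Ifit3 and Isg15. They were chosen because Gbp2 and Iigp1 stood high on 1 array, that of neurospheres made from embryonic fibroblasts and grown with LIF plus cAMP. Of the 9, 8 had a probe set annotated only to them, out of 18193 genes with such a probe set. The only probe set for Isg15, a ubiquitin-like protein that is joined to other proteins, also names Gm9706, so Isg15 has no value here. For each gene the probe set with the highest mean over all 12 arrays was read.

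The study measured RNA from 12 mouse cultures on Affymetrix arrays and set neurospheres made directly from fibroblasts beside neurospheres of other origins. Neurospheres are floating clusters of cells grown under conditions that favour neural stem and progenitor cells, and here their medium was MHM. The embryonic fibroblast-derived neurospheres were 1 array with LIF plus cAMP, labelled iNSC_4_embryo, and 1 with LIF, labelled iNSC_3_embryo. The adult fibroblast-derived neurospheres were 1 array with EGF plus cAMP, labelled iNSC_1, and 1 with LIF, labelled iNSC_2. Adult skin fibroblasts gave 1 array. Primary and secondary neurospheres were each made from the iPS line 38C2 and from the ES line EB3, 1 array per line. Neurospheres from the ganglionic eminence (GE) of E14 embryos gave 1 array, and the undifferentiated 38C2 and EB3 cells, grouped as pluripotent cells, gave 1 array each. EGF and LIF are growth factors, and cAMP is a second messenger inside cells. The strain, the age of the adult donors and the way the fibroblasts were converted are not given in the labels, and no culture condition has a second array. The embryonic fibroblasts themselves were not analysed here, so no comparison with their source cells was made for the embryonic pair.

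Interferons are secreted proteins that warn neighbouring cells of infection. Type I interferons switch on genes through the interferon-stimulated response element, with STAT2 and IRF9 among the factors that bind it, whereas interferon gamma acts mainly through the gamma-activated site. The guanylate-binding proteins and immunity-related GTPases are known as strong targets of interferon gamma, and the Ifit genes as targets of type I interferon, although the programmes overlap.

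The start regions of these genes were searched for the letters that such factors are known to read, and 4 of them are printed. Promoter windows of 300 bases, from 250 before to 50 after the annotated start, were taken from RefSeq on GRCm38.p6 and found for 8 of the 9 genes, all but Iigp1. Both strands were searched for GAAANNGAAA, the core of the interferon-stimulated response element, and for TTCNNNGAA, the letters of the gamma-activated site, counting overlapping matches. GAAANNGAAA occurred in 3.44% of all 32851 promoter windows, and TTCNNNGAA in 8.3%. The last 150 bases before the start are shown 5′ to 3′ on the gene's own strand, with matches in capitals. Gbp2 is shown as the gene that led the choice, Irgm1 as the gene with the most similar pattern across arrays, Ifit1 as a gene highest in fibroblasts and Irf1 for its other motif. These lie on the plus strand at chr3:142620513-142620662 for Gbp2, on the minus strand at chr11:48871421-48871570 for Irgm1, on the plus strand at chr19:34640739-34640888 for Ifit1 and on the plus strand at chr11:53769864-53770013 for Irf1.
Gbp2: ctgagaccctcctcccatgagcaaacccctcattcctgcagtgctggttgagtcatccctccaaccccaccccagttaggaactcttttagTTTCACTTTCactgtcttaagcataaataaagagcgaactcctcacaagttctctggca
Irgm1: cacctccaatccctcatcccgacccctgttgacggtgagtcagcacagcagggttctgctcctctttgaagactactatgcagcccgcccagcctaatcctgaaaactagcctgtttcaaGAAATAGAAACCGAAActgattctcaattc
Ifit1: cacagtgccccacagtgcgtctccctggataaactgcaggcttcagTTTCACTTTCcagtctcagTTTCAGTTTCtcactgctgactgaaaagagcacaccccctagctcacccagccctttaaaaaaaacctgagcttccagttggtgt
Irf1: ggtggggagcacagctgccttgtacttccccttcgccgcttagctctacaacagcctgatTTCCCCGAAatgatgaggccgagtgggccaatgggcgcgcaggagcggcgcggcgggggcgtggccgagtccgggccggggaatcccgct

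GAAANNGAAA was present once in the Gbp2 window, its first base 59 bases before the start. It occurred as 2 overlapping matches in Irgm1, at 30 and 24 bases before the start, and as 2 separate matches in Ifit1, at 104 and 85 bases before it. The 300-base windows of Gbp3 and Ifit3 held 2 matches each and that of Isg15 held 3. Irf7 had no match to either motif. Irf1 had no GAAANNGAAA, and TTCNNNGAA once, 90 bases before the start shown. A second annotated start of Gbp3 and one of Irf1 had neither motif. These matches describe the letters in these windows and say nothing of which factor was bound in these cultures.

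All array values below are signals, linear intensities that had been scaled so that their 2%-trimmed mean was 100 on every array. Differences are on the log2(signal + 5) scale, which understates changes of dim genes, and a signal of 20 was used as the lower limit for a gene to be tested. Between 40.5% and 49.1% of probe sets reached 20 on an array, and the 3′ to 5′ signal ratio of Actb, a check of RNA quality, lay between 1.25 and 1.52, with 1.46 on iNSC_4_embryo. The labelled identities were checked against marker lists. Neural stem cell markers summed to signals between 856 and 2394 on the 4 fibroblast-derived arrays, against 17433 in GE neurospheres and 3515 and 3542 in iPS and ES cells, which are not neural. Sox2, which pluripotent cells share with neural stem cells, had 2092 of the sum of 2394 on iNSC_4_embryo and 1826 of 2178 on iNSC_3_embryo. In iPS and ES cells it had 3353 and 3418. Of the 8 markers, 6 reached 20 on each embryonic array, 7 on each adult-derived array, and 4 and 3 in iPS and ES cells. Olig2 had 115.5 on iNSC_4_embryo and 141.3 on iNSC_3_embryo, against 2.5 and 1.8 in iPS and ES cells. Hes5, a target of Notch signalling in neural progenitors, had 1.9 on iNSC_4_embryo and 0.7 on iNSC_3_embryo. Its signals were 59.7 on iNSC_1, 31.1 on iNSC_2 and 1859 in GE neurospheres. Pluripotent cell markers summed to between 2758 and 12808 on the 4 fibroblast-derived arrays, against 51.3 in GE neurospheres and 21022 and 22468 in iPS and ES cells. All 8 pluripotent cell markers reached 20 on iNSC_2, iNSC_3_embryo and iNSC_4_embryo, and 6 of 8 on iNSC_1, so these cultures carried their neurosphere label together with pluripotent cell transcripts. Bulk RNA cannot tell fewer cells of a type from less RNA per cell.

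The guanylate-binding proteins are large GTPases that gather on the membranes around intracellular pathogens. Gbp2, Entrez gene 14469, had a signal of 614 on iNSC_4_embryo, 30.7 on iNSC_3_embryo, 29.1 on iNSC_1 and 80.3 on iNSC_2, and 131 in adult fibroblasts. In primary neurospheres it was at 0.2 and 4.3 for iPS and ES origin, in secondary ones at 8.0 and 13.1, in GE neurospheres at 36.0, and in iPS and ES cells at 3.9 and 3.1. The LIF plus cAMP array therefore stood well above all others, fibroblasts came next, and the cells and neurospheres of the pluripotent lines lay at the bottom. A second Gbp2 probe set gave 458 on iNSC_4_embryo and 37.2 on iNSC_3_embryo, and there the next highest array was iNSC_2 at 101.0 rather than the fibroblasts at 84.3. Gbp3 (Entrez gene 55932) had 206 on iNSC_4_embryo, 17.1 on iNSC_3_embryo, 8.3 on iNSC_1, 19.5 on iNSC_2 and 41.4 in adult fibroblasts. It had 3.1 and 7.9 in primary neurospheres of iPS and ES origin, 12.2 and 15.7 in secondary ones, 21.0 in GE neurospheres, and 0.8 and 6.4 in iPS and ES cells. Gbp3 had the same highest and second highest arrays as Gbp2, and only those arrays and the GE neurospheres reached 20.

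The immunity-related GTPases act on the same pathogen vacuoles. Iigp1, an effector of this family (Entrez gene 60440), had 382 on iNSC_4_embryo, 21.4 on iNSC_3_embryo, 12.2 on iNSC_1, 24.2 on iNSC_2 and 47.5 in adult fibroblasts. On the other arrays it stayed under 20, at 6.7 and 13.4 in primary neurospheres of iPS and ES origin, 10.4 and 15.7 in secondary ones, 9.2 in GE neurospheres, and 12.7 and 12 in iPS and ES cells. The 1 high array was again the LIF plus cAMP one. The second Iigp1 probe set gave 145.6 there and 13.5 on iNSC_3_embryo. Irgm1, a regulator of the other family members (Entrez gene 15944), was less extreme, with 218 on iNSC_4_embryo, 58.2 on iNSC_3_embryo, 28.1 on iNSC_1, 72.8 on iNSC_2 and 159 in adult fibroblasts. It had 9.1 and 22.3 in primary neurospheres of iPS and ES origin, 28.9 and 39.1 in secondary ones, 41.8 in GE neurospheres, and 14.1 and 23.5 in iPS and ES cells. The fibroblasts came much closer to the LIF plus cAMP array for Irgm1 than for the other 3 GTPases.

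Irf1 and Irf7 are transcription factors, Irf1 an early target of interferon gamma and Irf7 the main driver of type I interferon genes. Irf1 (Entrez gene 16362) had 293 on iNSC_4_embryo, 161 on iNSC_3_embryo, 149.8 on iNSC_1, 221 on iNSC_2 and 137 in adult fibroblasts. It had 32.5 and 99.7 in primary neurospheres of iPS and ES origin, 55.4 and 70.8 in secondary ones, 61.2 in GE neurospheres, and 129 and 142.5 in iPS and ES cells. Irf1 was the 1 gene of the 8 that reached 20 on all 12 arrays, and its signals were high in pluripotent cells as well as in fibroblast-derived cultures. Irf7 (Entrez gene 54123) had 34.7 on iNSC_4_embryo, 29.1 on iNSC_3_embryo, 10.9 on iNSC_1, 24.0 on iNSC_2 and 40.3 in adult fibroblasts. It had 12.6 and 7.0 in primary neurospheres of iPS and ES origin, 5.6 and 0.9 in secondary ones, 6.4 in GE neurospheres, and 3.8 and 11.6 in iPS and ES cells. Irf7 was dim throughout and had fibroblasts, not the LIF plus cAMP array, as its highest point.

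The Ifit genes encode proteins that bind foreign RNA. Ifit1 (Entrez gene 15957) had 45.8 on iNSC_4_embryo, 17.3 on iNSC_3_embryo, 2.7 on iNSC_1, 5.2 on iNSC_2 and 47.4 in adult fibroblasts, and between 2.4 and 8.9 on the other 7 arrays. Ifit3 (Entrez gene 15959), whose human counterpart binds IFIT1, had 37.9 on iNSC_4_embryo, 10.5 on iNSC_3_embryo, 5.8 on iNSC_1, 9.6 on iNSC_2 and 107 in adult fibroblasts. On the other arrays Ifit3 lay between 0.6, in ES-derived primary neurospheres, and 16.8, in GE neurospheres. Both genes reached 20 on the same pair of arrays and were higher in fibroblasts than on iNSC_4_embryo, by a small margin for Ifit1 and a wide one for Ifit3.

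**Figure D1:**
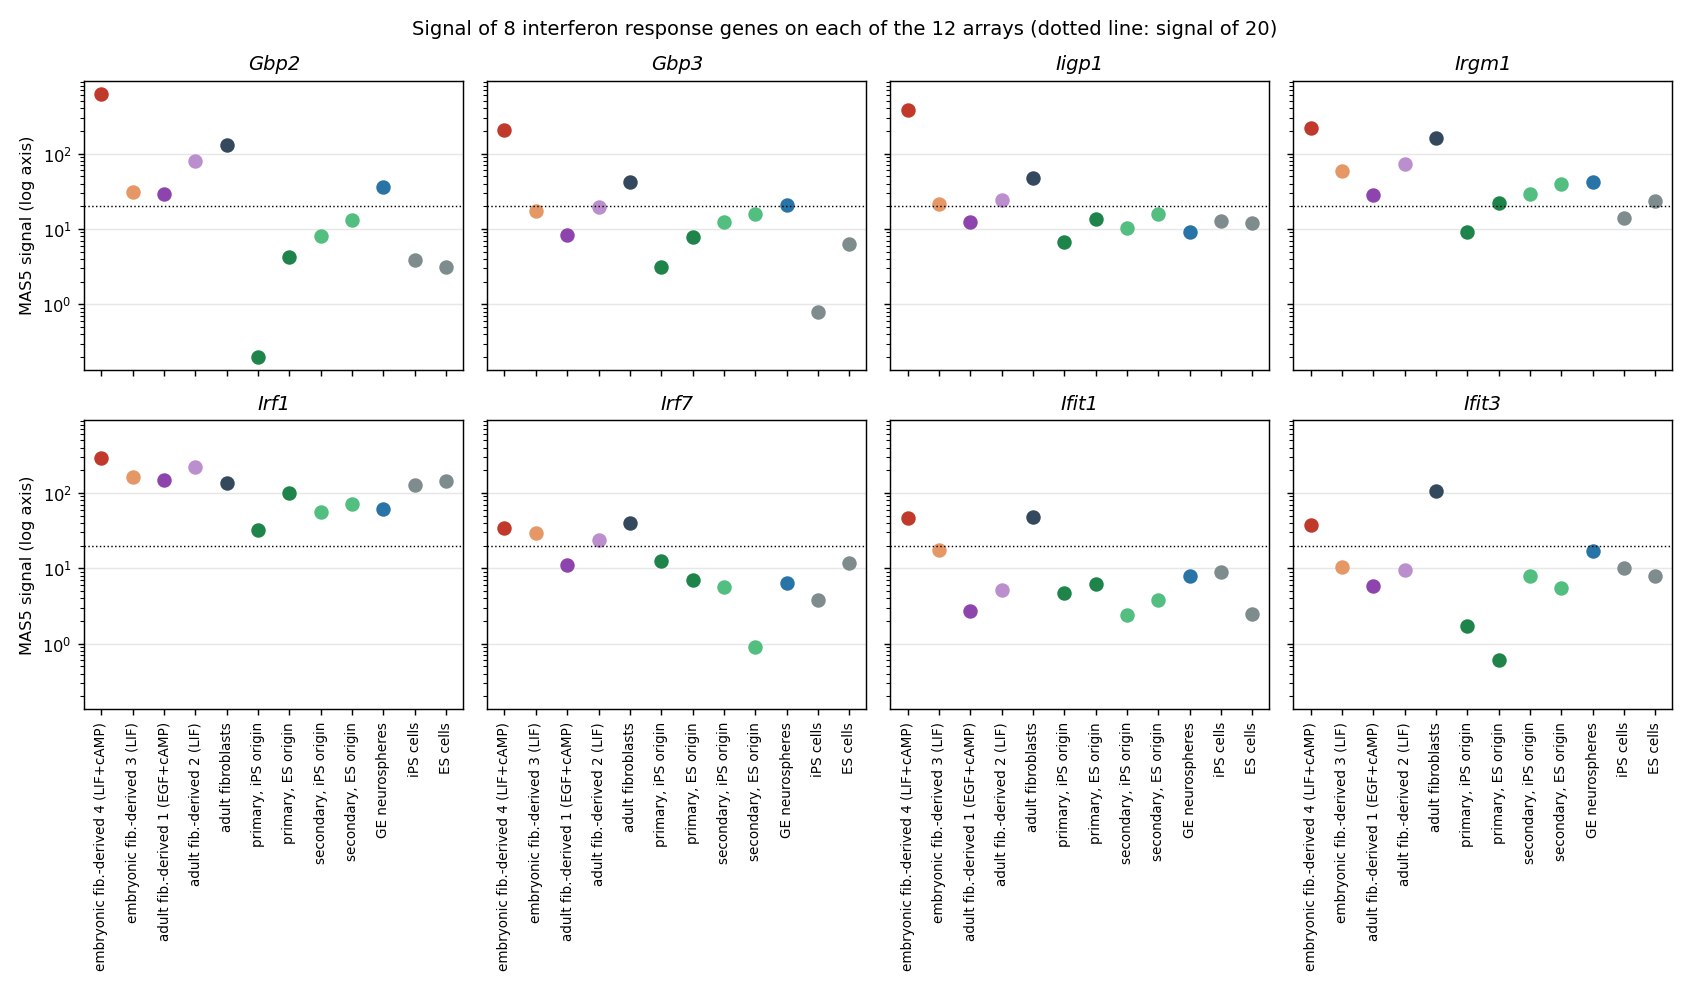
Signal of each of the 8 genes on each of the 12 arrays, 1 panel per gene, on a log axis; each point is 1 array and the dotted line marks a signal of 20. Gbp2, Gbp3, Iigp1, Irgm1 and Irf1 have their highest point on the LIF plus cAMP embryonic fibroblast-derived array, and Irf7, Ifit1 and Ifit3 have theirs in adult fibroblasts.

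The order of arrays thus split the genes into 5 with iNSC_4_embryo highest and 3 with adult fibroblasts highest. Over all 13627 genes that reached 20 on an array, iNSC_4_embryo was the highest of the 12 arrays for 6.74%. Since that array chose the genes, the count is a description. Among the 7063 genes at 100 or more on iNSC_4_embryo, ranked by how far its log2 value exceeded the next highest array, Iigp1 came in place 2 with an excess of 2.88, Gbp2 in place 3 with 2.19 and Gbp3 in place 4 with 2.18, in each case over adult fibroblasts. Irgm1 came in place 140, with an excess of 0.44, and Irf1 in place 154, with 0.40 over iNSC_2. The array was more than 1 above every other array for 38 genes, or 0.538% of those 7063. Besides the 3 GTPases, the top 10 places held Psmb8, a subunit of the immunoproteasome, the GTPase Gbp7 and Oasl2, a relative of the oligoadenylate synthetases. They also held Mcpt8, a protease of basophils and first in the ranking at 246.5 against 24.2 in adult fibroblasts, Sprr2d, a component of the epidermal barrier, and S100a8 and Ltf, which neutrophils make in bulk. S100a8 had 150.4 on iNSC_4_embryo and 33.9 on iNSC_3_embryo, and Ltf had 1578 on iNSC_4_embryo and 402 on iNSC_3_embryo.

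The embryonic pair sets LIF plus cAMP against LIF alone. It compares 1 array with 1, so it has no replicate check and no test. All 8 genes were higher on iNSC_4_embryo, 6 of them by more than 1 on the log2 scale, with a median difference of 1.64 against 0.02 for all genes. Of all 13627 genes, 2.16% were higher by more than 1 and 1.92% lower, and nothing is read from the count for the 8, which were chosen on this array. The log2 differences were 4.12 for Gbp2, 3.87 for Iigp1, 3.25 for Gbp3, 1.82 for Irgm1, 1.47 for Ifit3 and 1.19 for Ifit1. Irf1 differed by 0.85 and Irf7 by 0.22. Since Gbp2 and Iigp1 were chosen for their level on iNSC_4_embryo, nothing is read from the order of the 8 genes either.

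**Figure D2:**
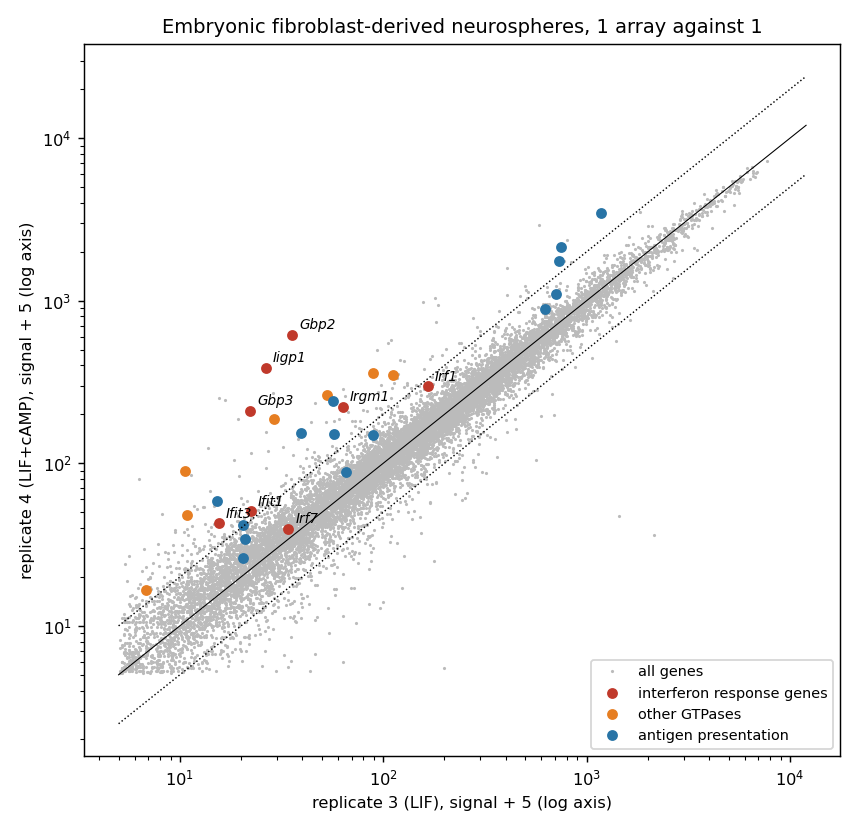
Signal + 5 of each gene that reached 20 on an array, on iNSC_4_embryo (LIF+cAMP, vertical log axis) and on iNSC_3_embryo (LIF, horizontal log axis), 1 array each; the solid line marks equal signals and the dotted lines a log2 difference of 1. Gbp2, Iigp1 and Gbp3 lie farthest above the lines among the 8 named genes, and 7 other GTPases and 8 of 14 antigen presentation genes also lie above the upper dotted line.

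Related genes outside the 9 also differed on this pair of arrays. Of 15 other interferon-induced GTPases, 10 had a probe set and 7 of these reached 20 on an array. These 7 were higher on iNSC_4_embryo by more than 1, as were 2.16% of all genes, with a median log2 difference of 2.16. The 7 include Gm4951, which reached 20 on that array alone, at 43.2 against 5.8, and Gbp8, which was under 20 on both arrays of the pair, at 11.7 against 1.8. Among them Gbp6 had 84.9 on iNSC_4_embryo and 5.6 on iNSC_3_embryo, Ifi47 had 183 and 24.2, and Irgm2 had 257.5 and 47.8, in the same order of arrays. Gbp7, at 355 and 84.4, and Igtp, at 346.5 and 106, were already well above 20 on the LIF array. The Gbp and Irg genes are close relatives, and a probe set of one may also detect another.

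Antigen presentation genes show fragments of a cell's proteins to T cells, and some had higher signals than any of the 8 genes. Of 14 measured, 8 were higher on iNSC_4_embryo by more than 1 and 0 lower, where 2.16% of all genes were higher by more than 1. The median was 1.15 against 0.02 for all genes. Of the 14, 2 reached 20 only on iNSC_4_embryo, namely Nlrc5 and H2-Eb1, so they were counted only through the array in which they were high. B2m, the light chain of class I molecules, had 3436 on iNSC_4_embryo against 1169 on iNSC_3_embryo, and H2-K1, a class I heavy chain, had 2136.5 against 739. The immunoproteasome subunits Psmb8 and Psmb9 had 237 and 148 on iNSC_4_embryo, against 51.6 and 34.4 on iNSC_3_embryo. Nlrc5, the transactivator of class I genes, had 53.6 against 10.3, and Tap1, which carries peptides to class I molecules, had 145.4 against 52.5. Class I heavy chains are near-identical, so the H2-K1 value may hold signal of its relatives.

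Among other type I interferon targets, 7 of 33 were higher on iNSC_4_embryo by more than 1 and none lower, with a median of 0.59. Of all genes, 2.16% were higher by more than 1. Oasl2 had 121 on iNSC_4_embryo against 27.0 on iNSC_3_embryo, Zbp1, a sensor of left-handed nucleic acids, 135.5 against 33.0, and Rtp4, a chaperone of receptors, 297 against 92.4. Rsad2, the antiviral enzyme viperin, had 164 against 67.8. Usp18, which removes ISG15 from proteins and damps the type I receptor, had 42.0 against 24.4, a difference of less than 1.

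The interferons themselves were dim, and most of their signalling parts differed by less than 1. Of 5 interferon genes with a probe set, only Ifna1 reached 20 on any array, in GE neurospheres at 21.0, and it had 11 on iNSC_4_embryo against 10.3 on iNSC_3_embryo. Ifnb1 had 8.4 on iNSC_4_embryo against 4.4 on iNSC_3_embryo, and Ifng had 0.2 against 0.5, all too dim to compare. Of 11 receptor and signalling genes, 1 was higher by more than 1. This was Stat2, at 39.2 on iNSC_4_embryo against 14.1 on iNSC_3_embryo. Its partner Irf9 had 135 against 76.6. The receptor chains Ifnar1, at 101 against 102, Ifnar2, at 233 against 201, Ifngr1, at 169.9 against 133, and Ifngr2, at 27.9 against 46.2, differed by less than 1 in either direction. Socs1, a feedback inhibitor of JAK kinases, was at 8.8 against 2.0, under 20 on both arrays. Of 11 sensors and other interferon regulatory factors, none differed by more than 1. Among 4 measured chemokines, 2 of which reached 20 on iNSC_4_embryo alone, Ccl5 was higher by more than 1, at 30.9 on iNSC_4_embryo against 9.7 on iNSC_3_embryo, and Cxcl10, a chemokine for T cells, had 26.4 against 13.4.

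Other lists moved on the same pair of arrays, and their part in the differences was not tested. Of all genes, 2.16% were higher by more than 1 and 1.92% lower. Of 17 cAMP response genes, 6 were higher by more than 1 on iNSC_4_embryo, with a median of 0.87. Ptgs2, which makes prostaglandin precursors, had 2920 on iNSC_4_embryo against 576 on iNSC_3_embryo, and the nuclear receptor Nr4a2 had 228.5 against 41.1. Of 17 LIF and STAT3 response genes, 1 was higher by more than 1, with a median of 0.16. Most macrophage and other blood cell markers on the list ran the other way. Of 8 that reached 20 on an array, 0 were higher and 6 lower by more than 1, with a median of -1.80, and the 13 with a probe set summed to 435.5 on iNSC_4_embryo against 2176 on iNSC_3_embryo. Lyz2, a lysozyme of macrophages, had 42.3 against 1434, and Ptprc, the pan-leukocyte surface protein CD45, had 5.8 against 41.1. Cd68, the 1 of the 8 that was higher, had 204.8 on iNSC_4_embryo against 150.1 on iNSC_3_embryo. Mcpt8, which is outside this list, had 246.5 against 10.5, and S100a8 and Ltf, also outside it, were higher on iNSC_4_embryo as given above. Fibroblast markers were higher by more than 1 for 2 of 8, with summed signals of 4348 on iNSC_4_embryo and 3068 on iNSC_3_embryo. Of 8 endothelial markers 1 was higher and 2 lower by more than 1, of 8 neural stem cell markers 0 and 1, and of 6 trophoblast and 8 pluripotent cell markers 0 and 0. Trophoblast markers were present on both arrays of the pair, with sums of 1077.5 on iNSC_4_embryo and 1648 on iNSC_3_embryo. On the other arrays they summed to 152.4 at most. Tpbpa had 687 of the sum on iNSC_4_embryo and 1324.5 of that on iNSC_3_embryo.

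The adult pair set EGF plus cAMP against LIF, a different contrast of media from the embryonic pair, and again compares 1 array with 1. None of the 8 genes was higher with EGF plus cAMP. All 8 were lower on iNSC_1 than on iNSC_2, 2 of them by more than 1, with a median of -0.82 against -0.01 for all genes. By the same limit 7.98% of all genes were lower and 2.83% higher. The pair past 1 were Gbp2, at 29.1 on iNSC_1 against 80.3 on iNSC_2, and Irgm1, at 28.1 against 72.8. Iigp1, Gbp3, Irf7, Ifit1 and Ifit3 were under 25 on both arrays, so they were dim throughout. Of the other GTPases 3 of 7 were lower by more than 1, Igtp with 31.0 on iNSC_1 against 129 on iNSC_2 among them, and of the other type I targets 13 of 33. Ifitm1, which hinders virus entry, had 305 against 1473. All 17 cAMP response genes were measured, and none was higher and 2 were lower by more than 1. On this pair 8 of 8 fibroblast markers and 7 of 8 pluripotent cell markers were lower by more than 1 as well, with summed signals of 857 against 5184 and of 2758 against 7719, and their part in the differences was not tested.

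**Figure D3:**
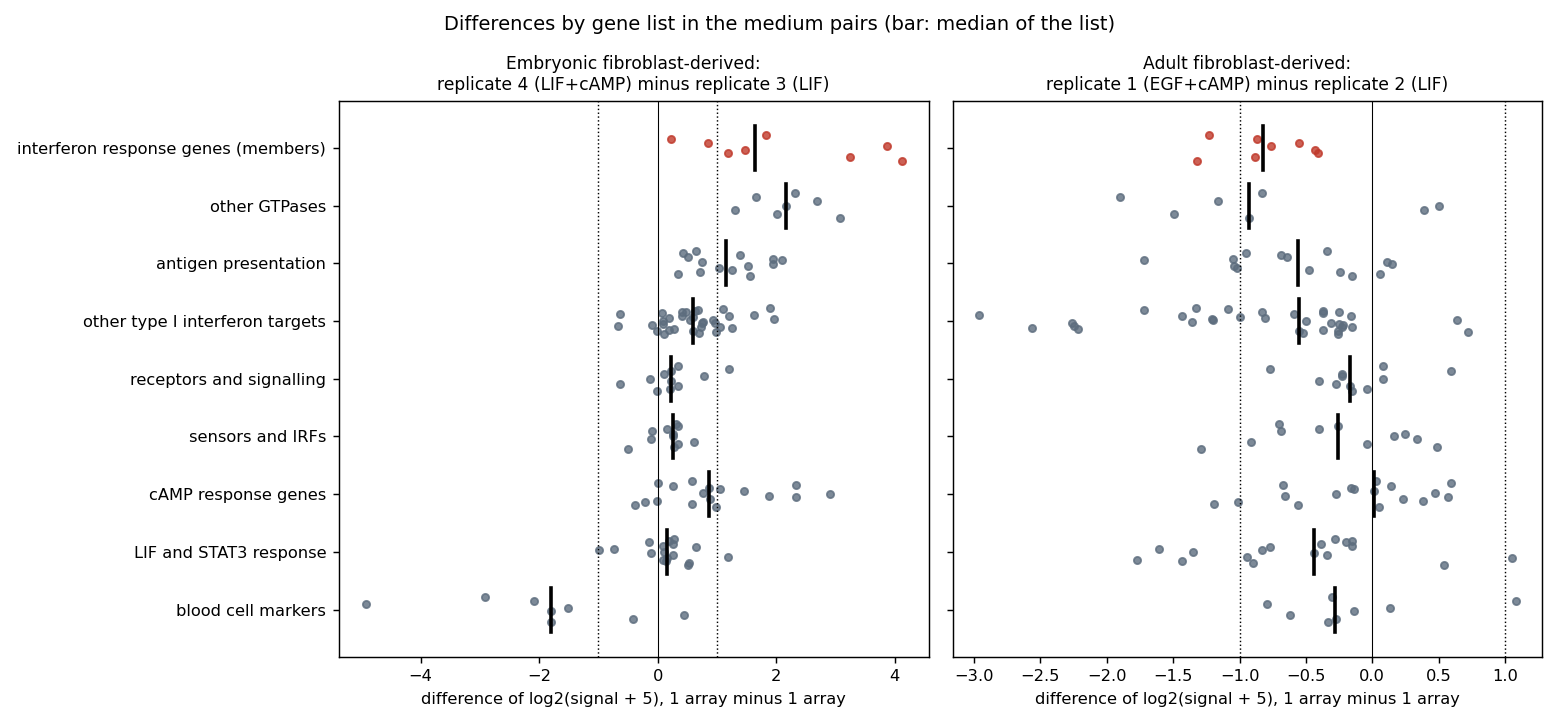
Difference of log2(signal + 5) for each gene of 9 lists, in the embryonic pair (LIF+cAMP minus LIF, left) and the adult pair (EGF+cAMP minus LIF, right), 1 array minus 1; each point is a gene, the bar the median of its list and the dotted lines -1 and 1. The horizontal scales differ. The 8 interferon response genes lie above 0 on the left, with a median of 1.64, and below 0 on the right, with a median of -0.82.

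The remaining comparisons left out iNSC_4_embryo, the array that chose the genes, although each gene's probe set was still the one with the highest mean over all 12 arrays. For Gbp2, 1 of the genes with more than 1 probe set, the other one was the brighter over these 11 arrays. They come from 1 limma fit over the other 11 arrays and 13551 genes, with Benjamini-Hochberg adjusted p-values over all of those genes. All 8 genes passed the signal limit on these 11 arrays, Ifit1 and Ifit3 only through adult fibroblasts, at 47.4 and 107. Calls of Ifit1 and Ifit3 against that array are therefore not independent of the limit and only describe it. Nothing in the labels marks the arrays of a group as repeat cultures, and they differ in line or medium, so a p-value here reflects only how far such arrays lie apart. Groups of 1 array were assumed to vary like the groups of 2. Of the 6 comparisons, 4 used the same pluripotent arrays, and the adult fibroblast-derived, adult fibroblast and secondary neurosphere arrays entered 2 comparisons each.

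Adult skin fibroblasts, the starting cell type of the adult neurospheres, had more of most of these transcripts than pluripotent cells. Of the 8 genes, 6 were called higher and 0 lower, where 34.3% of all genes were called and 17.4% were called higher. The 6 include Ifit1 and Ifit3, which entered the fit only through the fibroblast array. The median log2 difference was 2.44 against -0.04 for all genes. Gbp2 was 4 ± 0.64 higher (SE, adjusted p = 0.0043), with 131 on the fibroblast array and 3.5 ± 0.566 in pluripotent cells (SD, n = 2). Ifit3 was 3 ± 0.44 higher (adjusted p = 0.00327), with 107 in fibroblasts and 8.95 ± 1.63 in pluripotent cells. Irgm1, Gbp3, Ifit1 and Iigp1 were higher by 2.82, 2.51, 2.36 and 1.60, with adjusted p = 0.0146, 0.0179, 0.0118 and 0.0475. Irf7 missed the limit at 1.91 ± 0.64 (adjusted p = 0.0544). Irf1 differed by 0.02 ± 0.59 (adjusted p = 0.986), with 137 in fibroblasts and 136 ± 9.69 in pluripotent cells.

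Other genes of the pathway were called in part. Of the other GTPases 2 of 6 were higher, and of the sensors and other interferon regulatory factors 4 of 11, with a median of 0.50. Of the other type I targets 12 of 33 were higher and 1 lower, and of antigen presentation genes 7 of 12 higher and 0 lower. Ifi27, a mitochondrial interferon-induced protein, had 1540 in fibroblasts against 19.4 ± 9.90 in pluripotent cells (log2 difference 6.05 ± 0.82, adjusted p = 0.00271). B2m had 2640 against 222 ± 140 (3.69 ± 0.54, adjusted p = 0.00324). Of the receptor and signalling genes 6 of 11 were higher and 0 lower, led by Ifngr2, a chain of the interferon gamma receptor, with 224.5 against 14.8 ± 1.84 (3.54 ± 0.39, adjusted p = 0.00174), and Jak2, the kinase bound to it, with 225 against 23.6 ± 8.27 (3.04 ± 0.40, adjusted p = 0.0025). All 8 fibroblast markers were called higher too, and blood cell markers summed to 785 in fibroblasts against 251 and 140.4 in iPS and ES cells, and their part in the differences was not tested. Fitting only the groups compared left 3 of the 6 calls, Gbp2, Irgm1 and Ifit3, and leaving out either pluripotent array ended that of Iigp1 (adjusted p = 0.0932 and 0.114). Without iPS cells the call of Gbp3 was lost as well (2.03, adjusted p = 0.055).

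Adult fibroblast-derived neurospheres had far less of the Ifit transcripts than adult fibroblasts. Ifit3 fell by 3.15 on the log2 scale (SE 0.44, adjusted p = 0.00864), with 7.70 ± 2.69 in the neurospheres (SD, n = 2) and 107 on the fibroblast array. Ifit1 fell by 2.56 (SE 0.51, adjusted p = 0.0199), with 3.95 ± 1.77 in the neurospheres and 47.4 in fibroblasts. These were the 2 called of the 8 genes, with 0 called higher, where 14.1% of all genes were called, 5.25% as lower. Both had entered the fit only through the fibroblast array, in which they were high. The median difference of the 8 was -1.35 against 0.21 for all genes. The 4 GTPases and Irf7 had differences between -1.70 and -1.08 and adjusted p-values between 0.123 and 0.299. For Gbp2 this rests on the choice of probe set, since the one brighter over the 11 arrays differed by -0.33 (adjusted p = 0.771), against -1.34 for the one read here. Irf1 had 185 ± 50.3 in the neurospheres and 137 in fibroblasts (0.40 ± 0.59, adjusted p = 0.698).

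The other genes of the pathway did not all move with the Ifit pair. Ifit2, their close relative, was called lower with 7.45 ± 0.919 in the neurospheres against 127 in fibroblasts (log2 difference -3.41 ± 0.52, adjusted p = 0.0111). Among the other type I targets it was the 1 of 33 called lower. Of the same 33, 2 were called higher, where 1194 of all 13551 genes were called higher. They were Parp12, an antiviral enzyme that modifies proteins, with 899 ± 348 against 118 (2.82 ± 0.65, adjusted p = 0.0308), and Rsad2 with 89.0 ± 7.21 against 18.6 (1.99 ± 0.48, adjusted p = 0.0349). Ifngr2 fell by 2.52 (SE 0.39, adjusted p = 0.011), at 35.1 ± 5.37 in the neurospheres against 224.5 in fibroblasts, the 1 of 11 receptor and signalling genes called. The GTPase Ifi47 was called lower, 1 of 6, with 12.1 ± 9.26 against 122 (-3 ± 0.65, adjusted p = 0.0252). Fibroblast markers were called lower for 3 of 8, and summed to 857 and 5184 on the neurosphere arrays against 30544 in fibroblasts, and their part in the differences was not tested. Without iNSC_1, or with only the groups compared, the call of Ifit1 was lost (adjusted p = 0.0801 and 0.0807).

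Against pluripotent cells, 1 of the 8 genes was called in adult fibroblast-derived neurospheres, where 14.4% of all genes were called and 11.1% as higher. Gbp2 was higher by 2.67 ± 0.53 (adjusted p = 0.0188), with 54.7 ± 36.2 in the neurospheres and 3.5 ± 0.566 in pluripotent cells (SD, n = 2 each). Its 2 neurosphere values were 29.1 and 80.3, against 3.9 and 3.1 in iPS and ES cells. The differences of the other 7 lay between -0.20 and 1.15, with adjusted p-values between 0.159 and 0.815. The call of Gbp2 was lost when iNSC_2 was left out (2.01, adjusted p = 0.0909), when ES cells were left out (2.60, adjusted p = 0.0873), and when all 12 arrays were fitted (adjusted p = 0.118).

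Among the other lists, limma called 0 of 6 further GTPases, with a median of 1.14, and 1 of the 6, Irgm2, had an unadjusted p under 0.05 (log2 difference 1.77, adjusted p = 0.0588). Of the receptor and signalling genes 3 of 11 were higher. Of the other type I targets 6 of 33 were higher and 0 lower, led by Samd9l, an antiviral protein, with 276 ± 80.6 in the neurospheres against 14.2 ± 0.849 in pluripotent cells (3.84 ± 0.39, adjusted p = 0.00269). Of antigen presentation genes 3 of 12 were higher, led by Tapbp, which loads peptides on class I molecules, with 784 ± 130 against 84.2 ± 18.6 (3.15 ± 0.41, adjusted p = 0.00506). Both chemokines tested, Ccl2 and Ccl7, were higher, Ccl2 with 255 ± 149 against 10.9 ± 10.2 (4.07 ± 0.56, adjusted p = 0.00621). Irf2, which competes with Irf1 for the same sites, had 56.8 ± 10.4 against 2.60 ± 3.25 (3.08 ± 0.42, adjusted p = 0.00576).

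**Figure D4:**
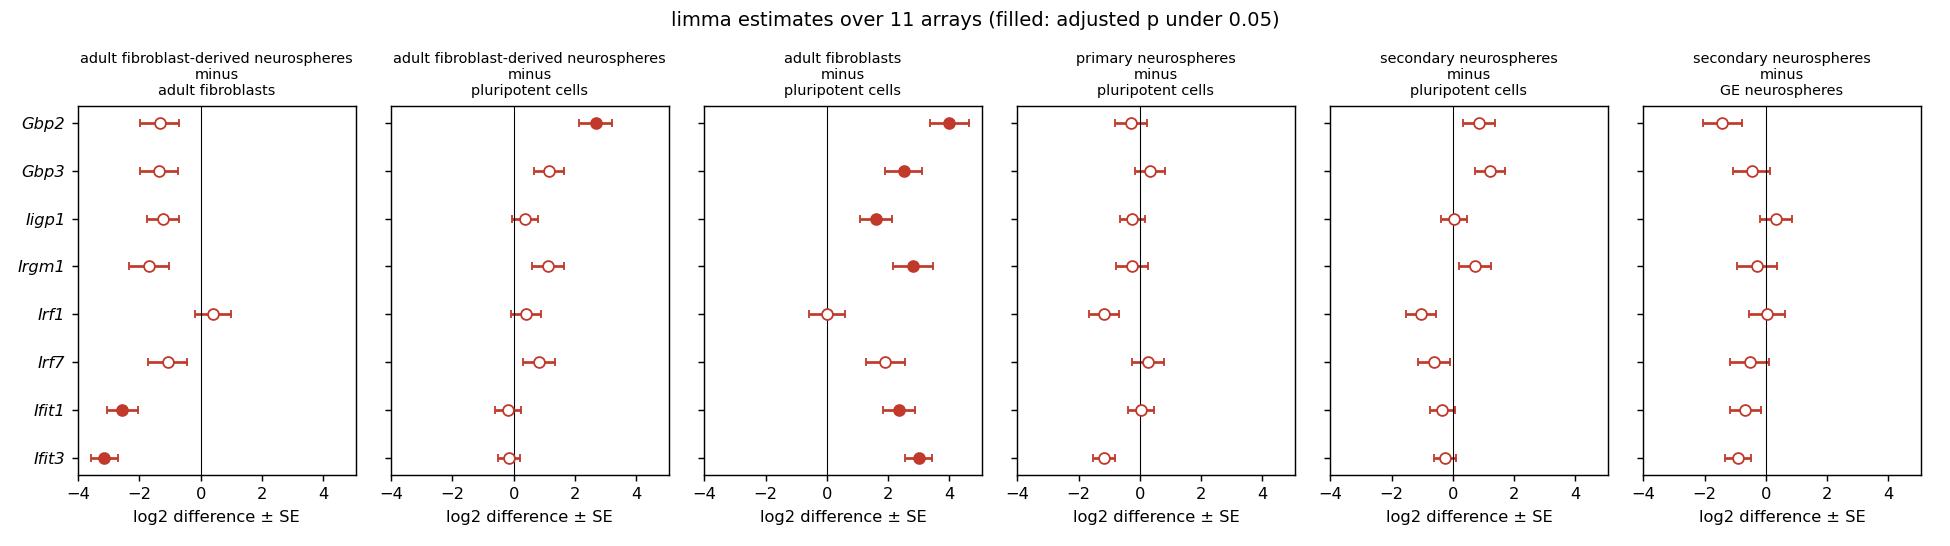
Log2 differences from the limma fit over 11 arrays for the 8 genes in 6 comparisons, 1 panel each, with bars of 1 SE; filled points have an adjusted p under 0.05. Filled points are Ifit1 and Ifit3 in the first panel, Gbp2 in the second and 6 genes in the third, and the last 3 panels have none.

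The neurospheres made from pluripotent lines showed no call among the 8 genes. In primary neurospheres against pluripotent cells, limma called 0 of 8, where 22.4% of all genes were called, and 2 of the 8 had an unadjusted p under 0.05. These were Ifit3, with 1.15 ± 0.778 in primary neurospheres and 8.95 ± 1.63 in pluripotent cells (-1.18 ± 0.36, adjusted p = 0.0527), and Irf1, with 66.1 ± 47.5 against 136 ± 9.69 (-1.16 ± 0.49, adjusted p = 0.119). Ifit3 was under 20 on all 4 arrays, and with the iPS or ES line as a replicate block its adjusted p was 0.0492. The Irf1 values were 32.5 and 99.7 in primary neurospheres, against 129 and 142.5 in iPS and ES cells. Without the ES-derived primary array the difference was -1.91. Of the other lists, limma called 0 of 6 further GTPases and, of 33 other type I targets, 1 higher and 2 lower. Of 11 receptor and signalling genes 2 were higher and 1 lower. Of 11 sensors and other interferon regulatory factors 1 was higher, of 12 antigen presentation genes 1 was lower, and of 2 chemokines 0 were called. Bst2, which tethers virus particles to the cell, had 52.8 ± 44.5 in primary neurospheres against 269 ± 124 in pluripotent cells (-2.42 ± 0.59, adjusted p = 0.0265), and Jak2 had 169 ± 12.9 against 23.6 ± 8.27 (2.63 ± 0.33, adjusted p = 0.00248).

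In secondary neurospheres against pluripotent cells, limma again called 0 of 8, where 39.9% of all genes were called, and 1 of the 8 had an unadjusted p under 0.05. That gene was Gbp3, with 14 ± 2.47 in secondary neurospheres and 3.60 ± 3.96 in pluripotent cells (1.21 ± 0.50, adjusted p = 0.0902). Irf1 had 63.1 ± 10.9 against 136 ± 9.69 (-1.05 ± 0.49, adjusted p = 0.121), with 55.4 and 70.8 on the 2 secondary neurosphere arrays. Of 6 other GTPases 3 were called higher, where 3219 of all 13551 genes were called higher and 2185 lower. These 3 were guanylate-binding proteins. Gbp7 had 67.6 ± 22.4 against 9.05 ± 0.778 (2.33 ± 0.52, adjusted p = 0.0112), Gbp8 had 47.8 ± 32.2 against 3.35 ± 2.05 (2.53 ± 0.51, adjusted p = 0.00785) and Gbp6 had 43.6 ± 41.8 against 1.35 ± 0.778 (2.61 ± 0.68, adjusted p = 0.0203). Receptor and signalling genes were higher for 6 of 11 and lower for 1, with Ifngr1 at 134 ± 6.65 against 38.0 ± 21.1 (1.79 ± 0.37, adjusted p = 0.00881). Of 33 other type I targets 2 were higher and 5 lower. Of 11 sensors and other interferon regulatory factors 2 were higher and 0 lower, and of 12 antigen presentation genes 2 and 0. Trim25, which helps RNA sensing, fell by 4.60 (SE 0.89, adjusted p = 0.00684), with 28.5 ± 3.82 against 840 ± 341.

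Against GE neurospheres, secondary neurospheres had 0 of 8 genes called by limma, and 0 with an unadjusted p under 0.05, where 1.65% of all genes were called. Gbp2 had the widest difference, with 10.6 ± 3.61 in secondary neurospheres and 36.0 on the GE array (-1.42 ± 0.64, adjusted p = 0.354). The others lay between -0.91, for Ifit3, and 0.33, for Iigp1. The GE neurospheres are 1 array.

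The 8 genes resembled each other to different degrees across the 12 arrays. Pearson correlations of log2(signal + 5) for the 28 pairs had a median of 0.71, between 0.44 for Irf1 with Ifit3 and 0.95 for Gbp2 with Irgm1. Without iNSC_4_embryo the median was 0.65 and the range 0.23 to 0.93. The arrays share lines and sources, so these values only describe the likeness of the profiles. Irf1 stood apart from the Ifit genes and from Gbp3, whereas Gbp2, Gbp3 and Irgm1 kept correlations of 0.86 to 0.93 without that array.

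Among 9999 genes that reached 100 on an array, the 5 with the profile most like that of Gbp2 over the 12 arrays were Irgm1 at 0.953, H2-K1 at 0.93, Gbp3 at 0.927, Mcoln1, an ion channel of lysosomes, at 0.926, and Psmb8 at 0.921. Without iNSC_4_embryo their correlations were 0.93, 0.861, 0.858, 0.91 and 0.845. For Iigp1 they were Mcpt8 at 0.947, Gbp3 at 0.902, Irf9 at 0.899, Irgm2 at 0.89 and Psmb8 at 0.888. Without iNSC_4_embryo these were 0.738, 0.703, 0.851, 0.887 and 0.84 in the same order. The correlations of Iigp1 with Mcpt8 and with Gbp3 thus rested more on the 1 array than that with Irgm2.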

How the data were processed

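The deposited values were MAS5 signals, linear intensities for which the submitters' processing notes name MAS5 and version 1.1 of Affymetrix Expression Console. A scaling to a fixed trimmed mean hides changes in total RNA. Each array's column was matched to its label by name. Deposited intensities were transformed to log2(signal + 5). A gene was tested if its probe set reached 20 on at least 1 of 11 arrays, iNSC_4_embryo being left out because it chose the genes. Groups were compared, 2-sided, in R 4.3.3 with lmFit and trended eBayes of limma 3.58.1 (4 residual and 3.54 prior degrees of freedom), at a Benjamini-Hochberg adjusted p under 0.05. Medium pairs of 1 array each had no test and were counted past a log2 difference of 1. The number of arrays limits the precision.

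The genes, the 15 related lists and the tests were chosen with earlier results of these data known. All 9 genes were named, with up to 4 called genes per list and comparison, up to 6 per list past 1 in the embryonic pair, the 5 most correlated with Gbp2 and with Iigp1, the 10 with the largest excess on iNSC_4_embryo, and 12 signalling genes whatever their values, 1 of which is not reported here. Further genes were named, after their values were seen, among the interferons, the blood cell markers and the adult pair. Of 209 list genes, 189 had a probe set of their own. Replicates 1 and 2 of the pluripotent, primary and secondary groups share the iPS or the ES line, and deviations from the group means correlated at 0.252, 0.0582 and 0.425, so the line was used as a block in an alternative. Other alternatives were a choice of probe sets over the 11 arrays tested, added after seeing the data, another scaling, pseudocount, filter, probe set rule or set of arrays, and leaving out each array.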

Additional observations from a re-analysis of the deposited data

Results flagged for a closer look

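In 7 cases the iPS and the ES line moved in opposite directions between pluripotent cells and their neurospheres, with 1 array per line and stage. The difference between the lines was not tested in any of them. In primary neurospheres minus pluripotent cells, the log2 difference of Gbp2 was 0.20 for the ES line and -0.78 for the iPS line, that of Iigp1 was 0.11 and -0.60 in the same order of lines, and that of Ifit1 was 0.58 and -0.52. Irf7 ran the other way, with -0.47 for the ES line and 1 for the iPS line. In secondary neurospheres minus pluripotent cells, Iigp1 differed by 0.28 for the ES line and -0.20 for the iPS line, Ifit1 by 0.23 and -0.91, and Irf7 by -1.49 and 0.27. All of these signals were under 20.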

How the results depend on the processing

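Of the counts among the 8 genes, those of the secondary against GE neurospheres and of the embryonic pair kept within 1.5 times of their value under all alternatives run. Adult fibroblast-derived neurospheres against adult fibroblasts had 2 calls, and 1 at a signal limit of 100 or with only the groups compared; leaving out 1 array gave 1 to 2. Against pluripotent cells they had 1 call, 0 with all 12 arrays and 0 to 1 with an array left out. Adult fibroblasts against pluripotent cells had 6, 3 at a limit of 100, where fewer genes are tested, and 3 with only the groups compared, and 4 to 5 with an array left out. Primary neurospheres against pluripotent cells had 0, and 1 with quantile normalization, a pseudocount of 1, the mean of a gene's probe sets, no trend or the replicate block, 2 after scaling arrays to a common median, and 0 to 1 with an array left out. Secondary neurospheres against pluripotent cells had 0, and 1 with the median scaling or only the groups compared. The adult pair had 2 genes past 1, 4 at a pseudocount of 1 and 1 at 20. The cause of these shifts was not tested. Taking each gene's probe set by its mean over the 11 arrays tested, an alternative chosen after seeing the data, changed no call among the 8 genes. Of the 677 repeats for single genes, 619 kept direction and call, 15 lost a call, 14 gained one and 29 changed sign, none of them called either way. Among these, with arrays scaled to a common median, Irf1 was at -0.02 in adult-derived neurospheres and -0.08 in fibroblasts, both against pluripotent cells, and at -0.10 in secondary against GE neurospheres, where Irf1 was -0.29 under the replicate block and -0.03 after quantile normalization. Quantile normalization put Irf1 at -0.10 in fibroblasts against pluripotent cells, Ifit1 at -0.04 in primary and Iigp1 at -0.31 in secondary neurospheres against pluripotent cells, and the median scaling put the last pair at -0.15 and -0.40. In primary neurospheres, Iigp1 was 0.03 with the mean of its probe sets and Ifit1 was 0.00 at a pseudocount of 20. The rest came from leaving out an array. Against pluripotent cells, the range was -0.65 to 0.24 for Ifit1, -0.36 to 0.07 for Ifit3 and -0.01 to 0.75 for Iigp1 in adult-derived neurospheres, and -0.05 to 0.09 for Irf1 in fibroblasts. In primary neurospheres it was -0.71 to 0.13 for Gbp2, -0.16 to 0.82 for Gbp3, -0.42 to 0.47 for Ifit1, -0.57 to 0.09 for Iigp1, -0.19 to 0.72 for Irf7 and -0.73 to 0.23 for Irgm1. In secondary neurospheres it was -0.78 to 0.11 for Ifit1 and -0.17 to 0.25 for Iigp1, and against GE neurospheres -0.13 to 0.20 for Irf1. The replicate block changed no other call.

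Counts over all genes moved more. Leaving out iNSC_1 or iNSC_2 took the 1905 calls against fibroblasts to 512 and 819, and the 1958 against pluripotent cells to 572 and 511, with 652 without ES cells. With only the groups compared, fibroblasts against pluripotent cells had 2775 for 4649, primary neurospheres 1372 for 3039 and secondary against GE neurospheres 15 for 224. Primary neurospheres had 901 without the iPS-derived array and 1442 without ES cells. Secondary neurospheres had 5404, and 3491 and 2711 without the iPS- and ES-derived array and 3449 without ES cells. Against GE neurospheres the 224 became 6 and 9 without either, 379 at a pseudocount of 20, 134 at a limit of 100 and 531 with all 12 arrays. Scaling to a common median moved the median difference of all genes by -0.30, -0.38, -0.31, -0.51 and -0.12 in the comparisons of adult-derived neurospheres with fibroblasts and with pluripotent cells, of primary and secondary neurospheres with pluripotent cells, and of secondary with GE neurospheres. The share of calls that were higher went with it to 40.4%, 37.9%, 40.7% and 34.2% in the first 4, against 62.7%, 76.8%, 71.0% and 59.6% as deposited. Quantile normalization moved the median by -0.11, -0.15, -0.11 and -0.19 in those 4. Most of the 8 genes lay under 20 on the arrays of pluripotent lines, where MAS5 signals have no order that these single arrays could settle.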
